A study of Mus musculus with 12 samples.

Results

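The 10 genes described here encode the ZEB, SNAIL and TWIST repressors and the factors that work with them: Zeb1, Zeb2, Snai1, Snai2, Twist1, Twist2, Tcf3, Tcf4, Tcf12 and Prrx1. They were taken by gene symbol from the 25230 genes listed in the counts, and all 10 were found. The libraries were RNA-seq of cultured mouse mesangial cells (MMC), the contractile matrix-producing cells of the kidney glomerulus, in 4 groups of 3 libraries. WT-SD and WT-TGF were wild-type MMC, serum-depleted (SD, the control without TGF-β) or given TGF-β at 10 ng/ml for 24 h. KO-SD and KO-TGF were MMC of the lncMGC KO5 line under these same conditions. In KO5, Cas9 and a pair of guide RNAs removed DNA around the start of lncMGC, the long non-coding host transcript of the miR-379 cluster, and the line was homozygous on a C57BL/6 background. KO5 is 1 edited line, and MMC were primary cells grown from pooled glomeruli and passaged. No gene in the counts stands for lncMGC, so the KO label was not checked here against the targeted RNA.

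ZEB and SNAIL proteins are zinc-finger repressors that bind the E box CACCTG, which reads CAGGTG on the other strand, and shut off epithelial genes such as that of E-cadherin during epithelial to mesenchymal transition (EMT). TWIST proteins are basic helix-loop-helix (bHLH) factors, which bind E boxes as dimers with the E proteins encoded by Tcf3 (E2A), Tcf4 (E2-2) and Tcf12 (HEB). Prrx1 is a homeobox factor of mesenchymal cells. In mesangial cells, which are already mesenchymal, ZEB proteins are known as brakes on collagen E boxes, and TGF-β is the factor best known for raising SNAIL. The question was how the RNA of these repressors and partners stood in SD, how it moved with TGF-β, and whether either differed between WT and KO. Tcf3 and Tcf4 here are the E protein genes and not Tcf7l1 and Tcf7l2, which share those names in the literature.

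The promoters in which results below can be read are those of Snai1 and Prrx1, which moved most with TGF-β, and of Spint2 and Dsp, an epithelial gene that fell and one that rose. Spint2 and Dsp were chosen after their values were seen. Each sequence is 250 bases before the start site and 50 bases from it, from RefSeq on GRCm38.p6 (mm10), written 5′ to 3′ on the strand of the gene. Snai1 lies at chr2:167537945-167538244 (+), Prrx1 at chr1:163313601-163313900 (-), Spint2 at chr7:29281928-29282227 (-) and Dsp at chr13:38151044-38151343 (+). Capitals mark CACCTG or CAGGTG in Snai1, Spint2 and Dsp, and the Smad-binding motif CAGAC or GTCTG in Prrx1.
Snai1: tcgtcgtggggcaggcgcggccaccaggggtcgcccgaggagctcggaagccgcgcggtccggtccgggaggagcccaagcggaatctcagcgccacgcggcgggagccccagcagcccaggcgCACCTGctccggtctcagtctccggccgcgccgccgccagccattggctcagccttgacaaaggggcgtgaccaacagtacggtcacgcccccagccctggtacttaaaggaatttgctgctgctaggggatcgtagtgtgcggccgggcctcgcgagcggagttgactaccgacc
Prrx1: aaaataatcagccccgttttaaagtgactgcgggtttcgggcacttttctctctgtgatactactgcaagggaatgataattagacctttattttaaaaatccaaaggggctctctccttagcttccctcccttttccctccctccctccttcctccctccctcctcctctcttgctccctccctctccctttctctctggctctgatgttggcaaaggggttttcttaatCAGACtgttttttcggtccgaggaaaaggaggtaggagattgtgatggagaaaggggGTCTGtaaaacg
Spint2: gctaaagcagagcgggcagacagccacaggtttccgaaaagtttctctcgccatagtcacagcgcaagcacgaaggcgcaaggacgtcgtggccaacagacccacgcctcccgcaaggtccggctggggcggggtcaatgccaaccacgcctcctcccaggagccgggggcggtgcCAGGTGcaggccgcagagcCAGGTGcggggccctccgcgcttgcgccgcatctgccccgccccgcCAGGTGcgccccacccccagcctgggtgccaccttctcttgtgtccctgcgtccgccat
Dsp: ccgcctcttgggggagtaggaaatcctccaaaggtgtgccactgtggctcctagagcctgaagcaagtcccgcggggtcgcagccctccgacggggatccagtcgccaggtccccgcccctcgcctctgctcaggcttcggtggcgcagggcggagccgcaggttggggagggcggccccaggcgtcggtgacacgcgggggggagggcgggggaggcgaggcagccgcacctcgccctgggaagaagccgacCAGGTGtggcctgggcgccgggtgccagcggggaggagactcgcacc

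Snai1, whose protein binds CACCTG, held that motif itself, 126 bases before its start site. Prrx1 held CAGAC 19 bases before the start site of its printed window and GTCTG 39 bases after it. This window lies inside the span of the gene (chr1:163245119-163315145, - strand) and not at the 5′ end of that span. RefSeq promoters were found for 7 of the 10 genes, 12 promoters in all, and none was found for Snai2. Chromosome 18, which holds Zeb1 and Tcf4, was left out of this search, so their promoters were not looked at. Among the 7, Snai1 was the one with CACCTG or CAGGTG, which stood in promoters of 22.6% of all genes with one (20.2% of all 32851 promoters). The motif CAGAC or GTCTG stood in promoters of 3 of the 7 genes, Twist1, Tcf12 and Prrx1, and of 53.2% of all genes with one (49.6% of all promoters). None of these 12 promoters held the E box CAGATG or CATCTG (17.2% of all promoters) or the whole Smad box GTCTAGAC (0.213%). Such matches are letters in a window and were not tested as binding sites.

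Each library had between 19898050 and 22827706 counts on genes. Libraries of a group lay close together, with a biological coefficient of variation of 0.0268. Reads outside annotated exons moved with the groups, from between 15.2% and 15.4% in WT-SD to between 10.3% and 10.9% in KO-TGF, and their part in the results was not tested. Levels are given as CPM, counts scaled to a common library size after TMM, and comparisons between genes as RPKM, CPM per kilobase of exon. Exon lengths join all GENCODE exons of a gene, while reads were tallied over RefSeq genes. Orders and ratios between genes therefore depend on these lengths. Of the 10 genes, 9 passed the filter of RPKM >1 in at least 1 library and were tested with 11478 genes in edgeR, and calls were made at FDR <5%, the Benjamini-Hochberg adjusted p. Twist1 did not pass, and its values come from another fit, without the filter, that held 18564 genes. The study calls the 3 libraries of a group independent samples, and neither it nor the labels say whether these were separate cultures or animals, so p-values measure the spread between these libraries. An exact permutation test of 3 against 3 libraries cannot go below p = 0.1, so p-values are given from the fits across all genes alone.

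Changes were frequent among all genes, and the counts of members have to be read against that. With TGF-β in WT, 5 of the 10 members were higher and 2 lower, against 35.9% and 36.5% of all genes tested. In KO, TGF-β left 4 higher and 4 lower, against 35.0% and 39.0% of all genes. Between the genotypes, KO-SD exceeded WT-SD in 6 members and was below it in 4, where 30.6% and 25.3% of all genes were higher and lower. With TGF-β, 6 were higher and 3 lower in KO, where the shares over all genes were 27.3% and 27.8%. The log2 response to TGF-β was more positive in KO than in WT for 1 member and more negative for 4, against 8.76% and 16.6% of all genes. These member counts include Twist1, from the fit of 18564 genes without the filter. It was called lower with TGF-β in KO, higher in KO-SD than in WT-SD, and more negative in response. In that fit 5288, 4351 and 2323 genes were called in these 3 ways. Without KO-TGF replicate 1 or replicate 2, members with a more negative response in KO were 2 in place of 4. Without WT-SD replicate 2 the members lower in KO-SD were 2 in place of 4, and over all genes 2633 in place of 2901. Over all genes, leaving out 1 KO-TGF library gave between 1232 and 1316 more positive and between 1385 and 1424 more negative responses in KO, against 1006 and 1904. Scaling mattered for small changes: TMM factors ran from 1.09 in WT-SD to 0.90 in KO-TGF, and with library size alone the median over all genes fell to -0.16 on the log2 scale for TGF-β in WT and to -0.23 in KO, from -0.01 and -0.02. Calls over all genes under that scaling stood at 2648 higher and 5998 lower in WT, against 4124 and 4191, and at 2304 higher and 6664 lower in KO, against 4014 and 4480. For KO over WT they stood at 2446 higher and 4161 lower in SD and at 1647 and 5378 with TGF-β, and for the difference in response at 687 and 2649. Members higher with TGF-β were 2 in WT and 2 in KO under that scaling, Zeb2 and Snai1 in both.

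**Figure D1:**
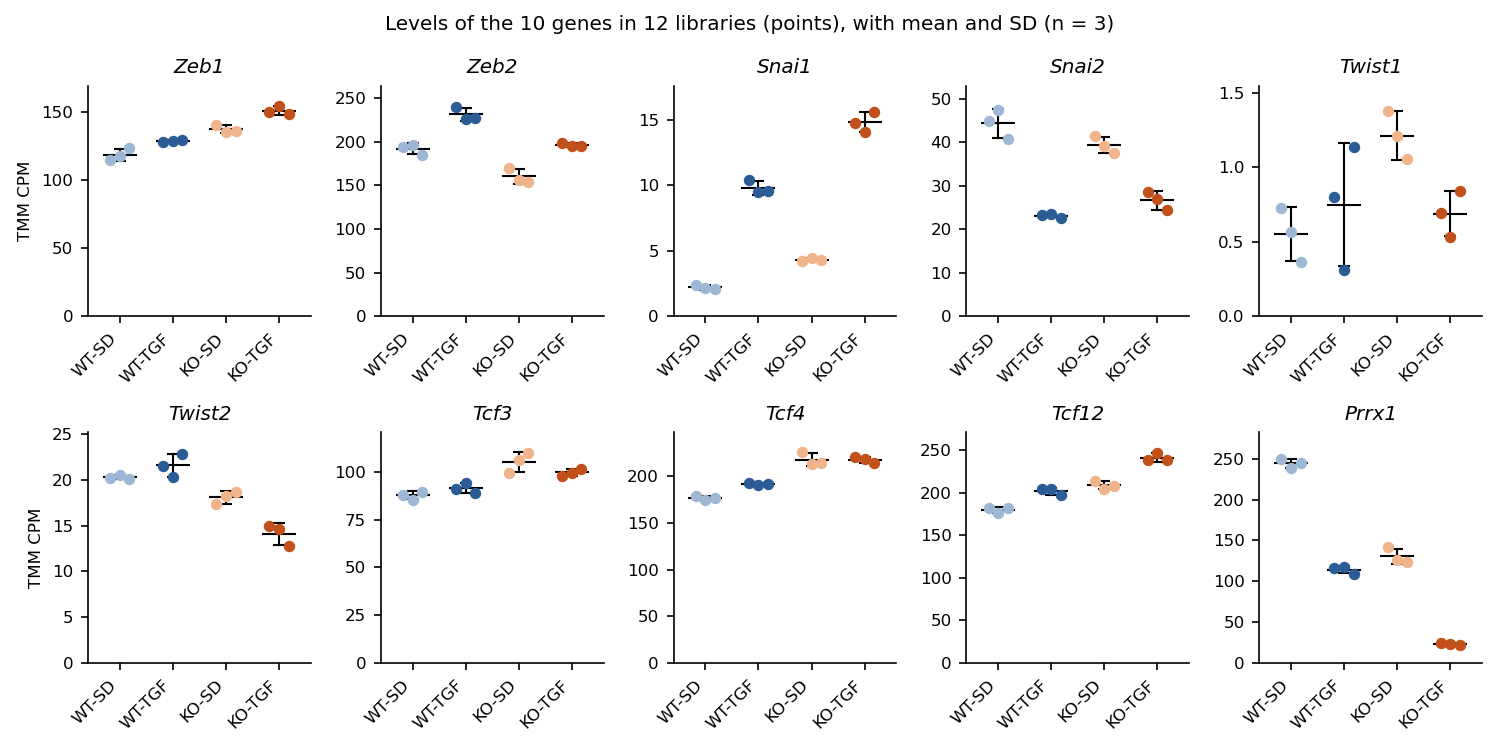
TMM-scaled CPM (y axis, linear and from 0) of each of the 10 genes in the 12 libraries (points) of the 4 groups (x axis), with the mean and SD of 3 libraries. Snai1 rose with TGF-β from between 2.05 and 2.41 to between 9.45 and 10.4 CPM in WT, and Prrx1 fell in KO-TGF to between 22.1 and 24.4 CPM, while Zeb1, Zeb2, Tcf3, Tcf4 and Tcf12 moved little.

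Per length, 3 members led in WT-SD and could not be ordered: Prrx1 at 22.1 ± 0.505 RPKM (SD, n = 3), Snai2 at 21.9 ± 1.69 and Tcf3 at 21.7 ± 0.511. Tcf12 and Zeb1 overlapped at 11.6 and 11.5 RPKM, Zeb2 followed at 9.62, and Tcf4 and Twist2 overlapped at 6.46 and 6.39. Snai1 was at 1.36 and Twist1 at 0.340 RPKM, each apart from its neighbours. This order rests on the exon lengths used. By mean CPM in WT-SD, Prrx1 (244) also led, but Zeb2 (192), Tcf12 (180) and Tcf4 (177) stood above Tcf3 (87.8) and Snai2 (44.4). The order per length was not kept in the other groups. In KO-TGF, Tcf3 (24.7 RPKM) was first, followed by Tcf12, Zeb1, Snai2 and Zeb2, and Snai1 had reached 9.13 ± 0.475, above Tcf4 at 7.96. Prrx1 stood next to last there, at 2.09 ± 0.107 RPKM. Summed over the 10 genes the RPKM changed little, at 113 in WT-SD, 102 in WT-TGF, 109 in KO-SD and 102 in KO-TGF.

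Zeb1 (chr18:5591327-5775468, + strand), the zinc-finger repressor that also recruits CtBP, was at 115, 117 and 123 CPM in WT-SD, 128, 128 and 129 in WT-TGF, 140.4, 135 and 136 in KO-SD, and 150.1, 154 and 148 in KO-TGF. The 4 groups did not overlap, and each step was small. TGF-β raised Zeb1 by 0.12 on the log2 scale in WT (SE 0.03, FDR 0.00134) and by 0.14 in KO (FDR 0.000183), which with library size alone turned to -0.04 in WT and -0.06 in KO. KO was above WT by 0.21 in SD (FDR 7.63e-07) and by 0.23 with TGF-β (FDR 1.4e-07), and kept that direction under both scalings. The response did not differ between genotypes beyond the error (interaction 0.02, 95% interval -0.06 to 0.11).

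Zeb2 (chr2:44983512-45117442, - strand), its paralog, also called SIP1, went the other way between the genotypes. Its levels were 194, 197 and 185 CPM in WT-SD and 239.9, 226 and 228 in WT-TGF, against 170.0, 157 and 154 in KO-SD and 199, 196 and 195 in KO-TGF. Each KO library was below every WT library of the same condition. TGF-β raised Zeb2 by 0.27 in WT (SE 0.03, FDR 1.05e-08) and by 0.29 in KO (FDR 3.59e-09), and by 0.11 and 0.09 with library size alone, still called. KO was lower by -0.26 in SD (FDR 6.23e-08) and by -0.24 with TGF-β (FDR 2.77e-07), and the interaction was 0.02 (95% interval -0.07 to 0.11). The ratio of Zeb1 to Zeb2 RPKM was between 1.15 and 1.30 in WT-SD and between 1.03 and 1.10 in WT-TGF, and in KO between 1.60 and 1.71 in SD and between 1.47 and 1.53 with TGF-β. This ratio does not depend on the scaling of libraries, and every KO library was above every WT library.

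Macrophages also express Zeb2 and their markers moved with the genotype. The 17 markers summed to between 40.6 and 44.3 CPM in WT-SD, 22.6 and 27.1 in WT-TGF, 8.50 and 10.1 in KO-SD, and 2.67 and 3.05 in KO-TGF. Adgre1, which encodes F4/80, had 60 to 178 counts in each WT library and 0 in each of the 6 KO libraries, and Ptprc (CD45) had 9 to 20 against 0 or 1. Lyz2 (lysozyme) had 237 to 308 counts in WT-SD and 6 to 10 in KO-SD, and Csf1r, the receptor of macrophage growth factor CSF1, had 40 to 49 and 10 to 14. In KO-SD 8 and in KO-TGF 6 of the 17 were at 0 in all libraries, and most of what remained in KO-SD was Cd14 (6.75 of about 9.22 CPM). Within WT, in a contrast of treatment and not of genotype, the marker sum was lower in WT-TGF than in WT-SD while Zeb2 was higher. The markers did not move together there. Mean Cd14 went from 10.9 to 3.33 CPM, but some low markers did not fall, such as Ptprc (0.583 to 0.716), C1qb (0.389 to 0.498) and Cx3cr1 (0.0738 to 0.526). The part of macrophages in the Zeb2 levels of any group was not tested. In such bulk RNA fewer cells of a type cannot be told apart from less RNA per cell.

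Zeb2os, a non-coding RNA read from the opposite strand over the start of Zeb2 (chr2:45111138-45114087, + strand), is known to favour Zeb2 protein through its antisense overlap. The counting used strand, so reads of both genes were told apart. Zeb2os was at 4.15, 3.78 and 4.92 CPM in WT-SD, 3.02, 3.12 and 2.81 in WT-TGF, 4.18, 4.59 and 3.03 in KO-SD, and 3.32, 2.83 and 2.99 in KO-TGF. It fell with TGF-β by 0.52 in WT (SE 0.15, FDR 0.00348) and by 0.36 in KO (SE 0.16, FDR 0.0421), against the direction of Zeb2. The fall in KO was not called in DESeq2 (-0.35). Zeb2 exceeded Zeb2os per length between 3.74 and 5.19 times in WT-SD and between 7.24 and 8.08 times in WT-TGF, and between 3.41 and 5.08 times in KO-SD and 5.98 and 6.90 times in KO-TGF. Neither genotype difference of Zeb2os was called (-0.12 in SD and 0.03 with TGF-β). Genes of microRNAs known to silence ZEB, Mir200a, Mir200b, Mir200c, Mir141, Mir429 and Mir205, had no count in any library, and Mir192 had 2 counts in 1 WT-TGF library. Mature microRNAs are not captured by such libraries.

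Snai1 (chr2:167538195-167542814, + strand), which encodes Snail, was the member that rose most with TGF-β. It had 2.41, 2.13 and 2.05 CPM in WT-SD, from 45 to 53 counts, and 10.4, 9.45 and 9.53 in WT-TGF. The KO libraries had 4.18, 4.44 and 4.31 CPM in SD and 14.8, 14.0 and 15.6 with TGF-β. No groups overlapped, and both SD groups were below both TGF-β groups. The rise was 4.44-fold in WT (log2 2.15, SE 0.12, FDR 1.09e-16) and 3.43-fold in KO (log2 1.78, SE 0.10, FDR 7.91e-17). KO exceeded WT 1.96-fold in SD (log2 0.97, SE 0.14, FDR 4.24e-07) and 1.51-fold with TGF-β (log2 0.60, SE 0.08, FDR 2.29e-07). The smaller log2 rise in KO was not called (interaction -0.37, 95% interval -0.69 to -0.06, FDR 0.0898), but it was with library size alone (-0.42, FDR 0.0489).

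Snai2 (chr16:14705852-14709395, + strand), which encodes Slug, moved opposite to Snai1. It had 44.9, 47.5 and 40.7 CPM in WT-SD, 23.3, 23.5 and 22.7 in WT-TGF, 41.3, 39.3 and 37.5 in KO-SD, and 28.7, 27.1 and 24.3 in KO-TGF. SD and TGF-β libraries did not overlap in either genotype, while WT-SD and KO-SD did. TGF-β lowered Snai2 1.92-fold in WT (log2 -0.94, SE 0.06, FDR 5.37e-15) and 1.48-fold in KO (log2 -0.56, SE 0.06, FDR 1.01e-09), and the fall was smaller in KO (interaction 0.38, SE 0.08, FDR 0.00101). The genotype difference was small and changed direction, at -0.17 in SD (FDR 0.00712) and 0.20 with TGF-β (FDR 0.00947). Both calls depended on 1 library: the first was lost without WT-SD replicate 2 (-0.12, FDR 0.0859), and the second without KO-TGF replicate 1 (0.17, FDR 0.0534) or with library size alone (0.08, FDR 0.284).

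The balance of the paralogs therefore moved in both genotypes. Per length, Snai1 stood at 0.0671, 0.0559 and 0.0628 of Snai2 in the WT-SD libraries and at 0.555, 0.502 and 0.524 in WT-TGF. In KO the ratio was 0.126, 0.141 and 0.143 in SD and 0.642, 0.647 and 0.798 with TGF-β. No groups overlapped, and Snai2 remained above Snai1 in every library. Snai3, Scrt1 and Scrt2, the other SNAIL-family genes, had CPM means of 0.160 or less in every group.

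**Figure D2:**
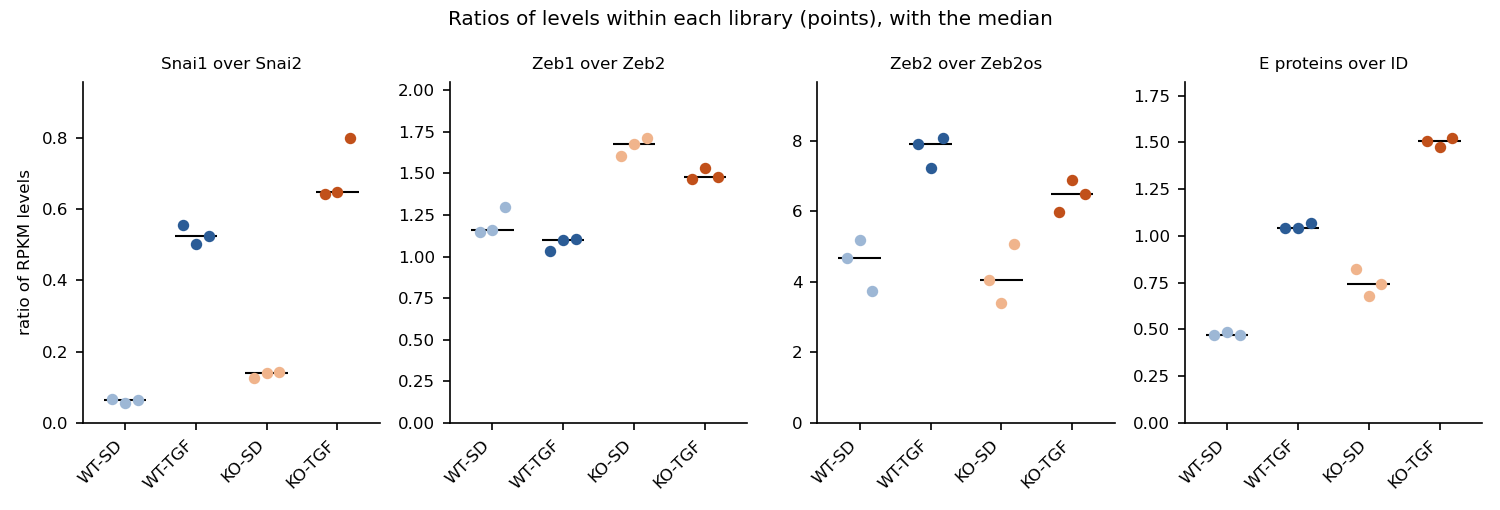
Ratios of RPKM levels (y axes, linear and from 0) within each of the 12 libraries (points) by group (x axis), with the group median as a line, for Snai1 over Snai2, Zeb1 over Zeb2, Zeb2 over Zeb2os, and the sum of Tcf3, Tcf4 and Tcf12 over the sum of Id1 to Id4. Snai1 over Snai2 rose from at most 0.143 in SD to at least 0.502 with TGF-β, E proteins over ID from at most 0.820 to at least 1.04, and Zeb1 over Zeb2 was highest in KO-SD.

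Of the TWIST genes, Twist1 was low, and no rise with TGF-β was called for Twist1 or Twist2. Twist1 (chr12:33957671-33959831, + strand) had between 7 and 30 counts in any library, or 0.729, 0.565 and 0.365 CPM in WT-SD, 0.803, 0.312 and 1.14 in WT-TGF, 1.38, 1.21 and 1.05 in KO-SD, and 0.695, 0.534 and 0.840 in KO-TGF. The KO-SD libraries were above all WT-SD and KO-TGF libraries, and WT-TGF spread across the other groups. KO-SD was above WT-SD by 1.16 (SE 0.30, FDR 0.000353), and Twist1 fell with TGF-β in KO by 0.79 (SE 0.29, FDR 0.0148). In WT the change was 0.44 (95% interval -0.21 to 1.10, FDR 0.284), and the responses differed by -1.24 (SE 0.45, FDR 0.0347). The difference in SD stayed called whichever library was left out, with values from 0.94 to 1.40, but the other calls rested on single libraries. The fall in KO was lost without KO-SD replicate 1 (-0.69, FDR 0.069), without KO-TGF replicate 2 (-0.64, FDR 0.0943) and in DESeq2 (-0.77, FDR 0.133), and a rise in WT was called without WT-TGF replicate 2 (0.84, FDR 0.0327). The interaction was lost in DESeq2 (FDR 0.251) and without any of 7 libraries: WT-SD replicate 2 (-1.25, FDR 0.101) or 3 (-1.02, FDR 0.132), WT-TGF replicate 1 (-1.17, FDR 0.0823) or 3 (-0.82, FDR 0.338), KO-SD replicate 1 (-1.13, FDR 0.0782), and KO-TGF replicate 1 (-1.24, FDR 0.0539) or 2 (-1.08, FDR 0.107).

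Twist2 (chr1:91801461-91848034, + strand), also called Dermo1, was the more abundant paralog. It had 20.2, 20.6 and 20.1 CPM in WT-SD, 21.5, 20.4 and 22.8 in WT-TGF, 17.4, 18.2 and 18.7 in KO-SD, and 14.9, 14.6 and 12.8 in KO-TGF. All KO libraries lay below all WT libraries, and KO-TGF lay lowest. TGF-β lowered Twist2 1.29-fold in KO (log2 -0.36, SE 0.07, FDR 3.55e-05), while the change in WT was 0.09 (95% interval -0.03 to 0.21). These responses differed by -0.45 (SE 0.09, FDR 0.000441), and KO-TGF was 1.53-fold below WT-TGF (FDR 5.26e-09). The smaller difference in SD (-0.16, FDR 0.0288) was lost in DESeq2 (FDR 0.0629), without a filter (-0.13, FDR 0.1) and without WT-SD replicate 1 (FDR 0.0532) or 2 (FDR 0.0783) or KO-SD replicate 1 (FDR 0.101) or 2 (FDR 0.0518).

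The 3 E protein genes, the common dimer partners of tissue-restricted bHLH factors, moved little. Tcf3 (chr10:80409541-80433976, - strand) had 88.2, 85.6 and 89.7 CPM in WT-SD, 91.4, 94.3 and 89.3 in WT-TGF, 99.4, 107 and 109.9 in KO-SD, and 98.2, 99.6 and 102 in KO-TGF. Tcf4 (chr18:69343429-69687967, + strand) had 179, 175 and 177 CPM in WT-SD, 193, 191 and 191 in WT-TGF, 226, 214 and 214 in KO-SD, and 220.4, 218 and 215 in KO-TGF. Tcf12 (chr9:71844252-72111893, - strand) had 182, 176 and 182 CPM in WT-SD, 205, 204 and 197 in WT-TGF, 214, 204 and 208 in KO-SD, and 238, 247 and 239 in KO-TGF. For each of the 3, every KO library lay above every WT library of the same condition.

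KO exceeded WT in SD by 0.26 for Tcf3 (FDR 3.69e-07), 0.30 for Tcf4 (FDR 4.41e-11) and 0.21 for Tcf12 (FDR 8.06e-08). With TGF-β the differences were 0.12 (FDR 0.00583), 0.18 (FDR 1.01e-06) and 0.26 (FDR 1.96e-09), of which that of Tcf3 fell to 0.00 with library size alone (FDR 0.95). TGF-β raised Tcf12 by 0.17 in WT (FDR 3.87e-06) and by 0.21 in KO (FDR 5.2e-08), both at 0.01 with library size alone. Tcf4 rose by 0.12 in WT (FDR 0.000287), which turned to -0.04 with library size alone, and was at 0.00 in KO (95% interval -0.05 to 0.05), or at -0.20 and called lower with library size alone (FDR 3.99e-08). The responses of Tcf4 differed by -0.12 (FDR 0.0195), a call lost in DESeq2 (-0.09, FDR 0.137) and without KO-TGF replicate 1 (-0.09, FDR 0.118), 2 (-0.08, FDR 0.157) or 3 (-0.07, FDR 0.225). Neither response of Tcf3 was called (0.06 in WT and -0.08 in KO), but both depended on the setting. In WT Tcf3 was called higher with the CPM filter (0.08, FDR 0.041) and without a filter (0.10, FDR 0.0201) and lower with library size alone (-0.09, FDR 0.0267). In KO it was called lower without KO-SD replicate 1 (-0.12, FDR 0.00343) and with library size alone (-0.28, FDR 5.97e-08). The difference in the responses of Tcf3 (-0.14, FDR 0.0514) was called without WT-SD replicate 3 (FDR 0.042), WT-TGF replicate 3 (FDR 0.0422) or KO-SD replicate 1 (FDR 0.00363), with library size alone (FDR 0.00761), with the CPM filter (FDR 0.0392) and without a filter (FDR 0.0196).

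ID proteins bind E proteins and keep them from DNA, and the summed RNA of the Id genes moved much more than that of the E protein genes. Id1 had 17.0, 15.5 and 17.3 CPM in WT-SD and 10.5, 9.49 and 11.01 in WT-TGF, and in KO 12.3, 15.7 and 12.8 in SD and 9.84, 9.24 and 10.2 with TGF-β. Id2 had 34.9, 35.1 and 32.8 CPM in WT-SD, 6.05, 6.19 and 6.22 in WT-TGF, 17.5, 19.9 and 17.2 in KO-SD, and 2.30, 1.66 and 1.57 in KO-TGF. Id3, the most abundant, had 95.9, 88.1 and 96.9 CPM in WT-SD, 49.9, 52.2 and 46.0 in WT-TGF, 68.5, 83.9 and 83.0 in KO-SD, and 38.3, 42.1 and 39.0 in KO-TGF. In all 3 genes the TGF-β libraries lay below the SD libraries of the same genotype. Id4 had 12.3, 14.1 and 12.5 CPM in WT-SD and 6.80, 6.995 and 5.83 in WT-TGF, but 3.17, 4.01 and 2.98 in KO-SD and 3.37, 3.04 and 2.47 in KO-TGF, where the last pair of groups overlapped.

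All 4 Id genes fell with TGF-β in WT, with a list median of -0.96, and 3 of 4 fell in KO (median -0.73). Of all genes tested, 36.5% were lower with TGF-β in WT and 39.0% in KO. Id2 fell in both, with a log2 change of -2.48 in WT (SE 0.08, FDR 8.58e-23) and -3.30 in KO (SE 0.12, FDR 1.87e-21), and the fall was larger in KO (interaction -0.82, SE 0.17, FDR 0.000289). Id4 fell by 0.99 in WT, and its change in KO was -0.19 (FDR 0.287), a difference of 0.80 (SE 0.19, FDR 0.00207). In KO-SD all 4 were lower than in WT-SD, from -0.26 for Id3 (FDR 0.00017) to -1.94 for Id4 (FDR 3e-15). Summed per length, the 3 E proteins stood at between 0.467 and 0.483 of the 4 Id genes in WT-SD and between 1.04 and 1.07 in WT-TGF. In KO this ratio was between 0.680 and 0.820 in SD and between 1.47 and 1.52 with TGF-β, so that no groups overlapped. Most of the movement was in the Id sum, from 84.1 to 40.7 RPKM with TGF-β in WT and from 63.9 to 32.2 in KO, beside 39.8 to 42.7 and 47.5 to 48.2 RPKM for the E proteins.

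Prrx1 (chr1:163245119-163315145, - strand) changed most of the 10 genes. It had 249.9, 239 and 244 CPM in WT-SD, 116, 117 and 109 in WT-TGF, 141, 126 and 124 in KO-SD, and 24.4, 23.0 and 22.1 in KO-TGF. No groups overlapped. TGF-β lowered it 2.14-fold in WT (log2 -1.10, SE 0.04, FDR 1.29e-21) and 5.63-fold in KO (log2 -2.49, SE 0.05, FDR 1.51e-27), and the fall was larger in KO by 1.39 on the log2 scale (interaction -1.39, SE 0.07, FDR 1.07e-16). KO was 1.87-fold below WT in SD (log2 -0.91, FDR 3.39e-19) and 4.93-fold below with TGF-β (log2 -2.30, FDR 7.01e-26). Its paralog Prrx2, looked at after its values were seen, stood at 25.3, 25.2, 24.4 and 26.7 CPM in the order of the groups above and was not called in any of the 5 comparisons.

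**Figure D3:**
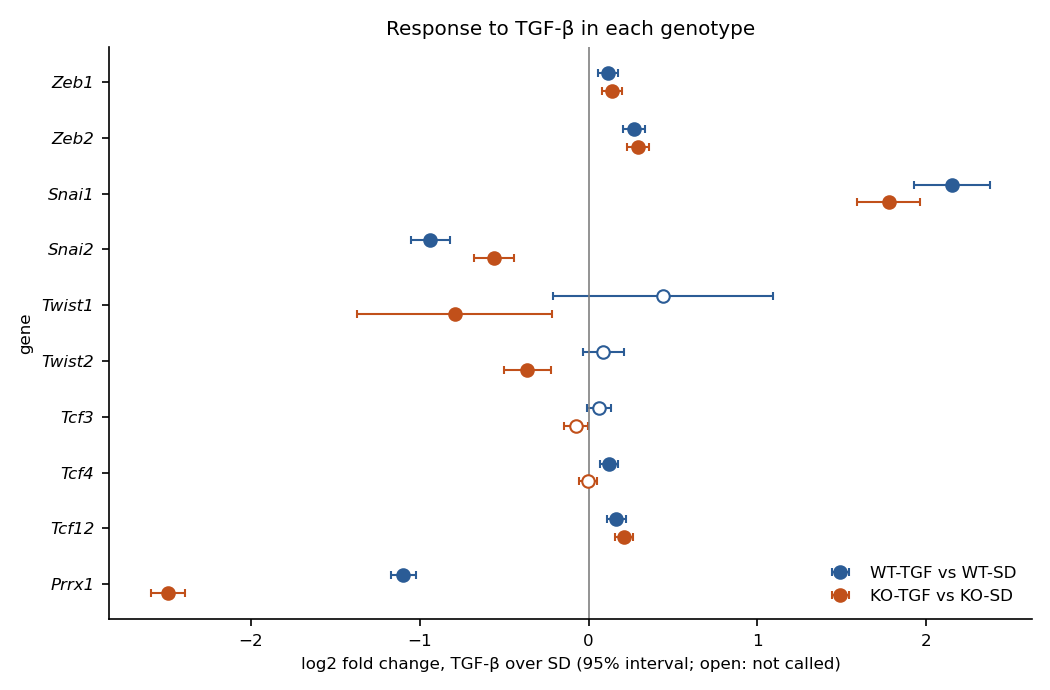
Log2 fold change with TGF-β over SD (x axis) of each of the 10 genes (y axis) in WT (blue) and KO (orange), with 95% intervals by a normal approximation and open points where FDR was not below 5%. Snai1 was at 2.15 and 1.78, Snai2 at -0.94 and -0.56 and Prrx1 at -1.10 and -2.49, whereas the values of Zeb1, Tcf4 and Tcf12 were at most 0.21 and turned negative or fell to 0.01 with library size in place of TMM.

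**Figure D4:**
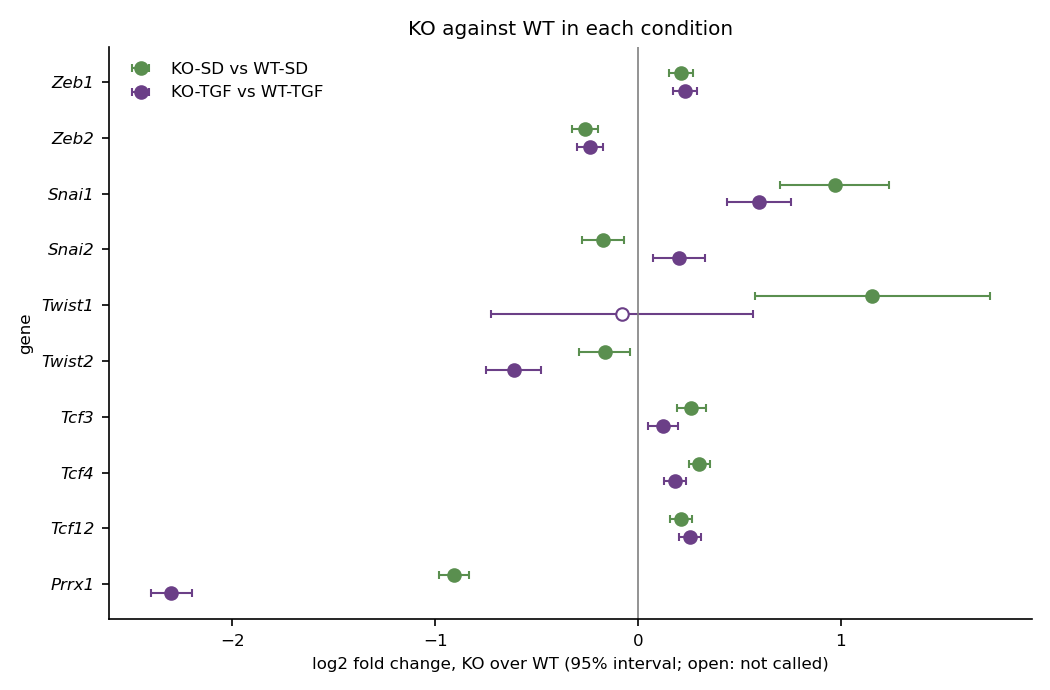
Log2 fold change of KO over WT (x axis) of each of the 10 genes (y axis) in SD (green) and with TGF-β (purple), with 95% intervals by a normal approximation and open points where FDR was not below 5%. Snai1 was higher in KO in both conditions (0.97 and 0.60), Zeb2 lower (-0.26 and -0.24), and Prrx1 lower in SD (-0.91) and further with TGF-β (-2.30).

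Profiles most like those of Snai1 and Prrx1, the members whose group means spanned at least 1 on the log2 scale, were searched among 10489 genes over the 12 libraries by the root mean square difference of centred log2 CPM. Nearest to Snai1 was Loxl2, a lysyl oxidase that crosslinks collagen, at 0.106. Loxl2 went from 496 to 1728 CPM with TGF-β in WT and from 798 to 2378 in KO. Cdh10, a type II cadherin, followed at 0.117 and Tagln, an actin-binding protein of smooth muscle, at 0.118. Nearest to Prrx1 were Cbx7, a Polycomb chromobox protein, at 0.166, Spint2, an inhibitor of serine proteases that belongs to the epithelial list, at 0.170, and Cyp7b1, an oxysterol hydroxylase, at 0.216. Cbx7 went from 28.7 CPM in WT-SD to 2.34 in KO-TGF, and Spint2 from 18.2 to 1.05. These genes were picked for their likeness, so no test is given.

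Epithelial genes are the classical targets of ZEB and SNAIL. Of the 35 on the list, 8 passed the RPKM filter, and these 8 are not a sample of the rest. With TGF-β in WT 1 was higher and 6 lower (median -0.61), and in KO 2 were higher and 6 lower (median -0.87), beside medians of -0.01 and -0.02 over all genes tested. Of those genes, 35.9% were higher and 36.5% lower in WT, and 35.0% and 39.0% in KO. Cldn1, the tight-junction claudin-1, had 235, 230.0 and 222 CPM in WT-SD, 37.2, 36.8 and 36.7 in WT-TGF, 66.8, 61.4 and 57.9 in KO-SD, and 10.6, 9.72 and 10.9 in KO-TGF. It fell by 2.63 in WT (SE 0.04, FDR 4e-30) and by 2.57 in KO (SE 0.06, FDR 6.18e-26), and KO-SD was below WT-SD by 1.88 (FDR 1.04e-26). Llgl2, a polarity protein, fell by 0.90 in WT (FDR 3.57e-15). Cdh3, P-cadherin, fell by 0.98 in KO (FDR 1.54e-09) but was above WT there by 1.78 in SD (FDR 2.66e-14).

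Spint2 had 19.3, 17.5 and 18.01 CPM in WT-SD, 6.19, 6.33 and 5.48 in WT-TGF, 8.82, 7.77 and 7.98 in KO-SD, and 1.07, 1.23 and 0.840 in KO-TGF. Its promoter, printed above, held CAGGTG 3 times, and the gene fell by 1.60 in WT (SE 0.09, FDR 1.2e-16) and by 2.97 in KO (SE 0.15, FDR 3.78e-17). Dsp, which encodes the desmosomal protein desmoplakin, held CAGGTG once and rose, by 0.73 in WT (FDR 6.52e-09) and by 1.22 in KO (FDR 9.87e-16). It had 8.88, 8.78 and 7.25 CPM in WT-SD, 13.9, 14.0 and 13.5 in WT-TGF, 11.1, 12.6 and 12.8 in KO-SD, and 29.1, 29.3 and 26.3 in KO-TGF. Both were chosen for their direction, so the pair shows no relation of the motif to the change. Cdh1, E-cadherin, the best-known target, had 2 to 9 counts in any library and did not pass the filter.

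Over the epithelial list, CACCTG or CAGGTG stood in the promoters of 18 of the 22 genes with a RefSeq promoter (81.8%), against 22.6% of all genes with one and 1 of 11 mesenchymal genes (9.09%). Counted by promoter, these shares were 75.9% of 29, 20.2% of 32851 and 8.33% of 12. Most of the 22 genes were barely detected in MMC: 5 of them passed the RPKM filter, Cldn1, Patj, Dsp, Elf3 and Spint2, and 4 of these 5 held the motif. Of the 4, Patj, Elf3 and Spint2 fell with TGF-β in both genotypes and Dsp rose, and Cldn1, the one without it in the promoter searched, fell. The lists were written from known EMT genes, several of which are known for these very E boxes, so the share describes the list and was not tested.

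Of the 20 mesenchymal genes, 18 were higher and 1 lower with TGF-β in WT (median 0.82), and 18 were higher and 2 lower in KO (median 0.66). Of all genes tested, 35.9% were higher and 36.5% lower in WT, and 35.0% and 39.0% in KO. With library size alone, 18 mesenchymal genes were higher in WT and 16 in KO, where 2648 and 2304 of all 11478 genes were higher. Itga5, which encodes a subunit of the fibronectin receptor, rose by 2.79 in WT and by 3.08 in KO. Loxl2 rose by 1.80 in WT and Tagln by 1.72. Cdh2, N-cadherin, whose gain is a textbook sign of EMT, instead fell, by 0.62 in WT (SE 0.03, FDR 9.73e-18) and by 0.83 in KO (SE 0.03, FDR 6.47e-21). It had 333, 351 and 332 CPM in WT-SD, 223, 210.4 and 226 in WT-TGF, 368, 362 and 346 in KO-SD, and 199.7, 199 and 206 in KO-TGF. Between the genotypes 13 mesenchymal genes were higher and 7 lower in KO in each condition, led in SD by the collagen gene Col3a1 (3.14, FDR 1.93e-34). Shares over all genes were 30.6% and 25.3% in SD and 27.3% and 27.8% with TGF-β.

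**Figure D5:**
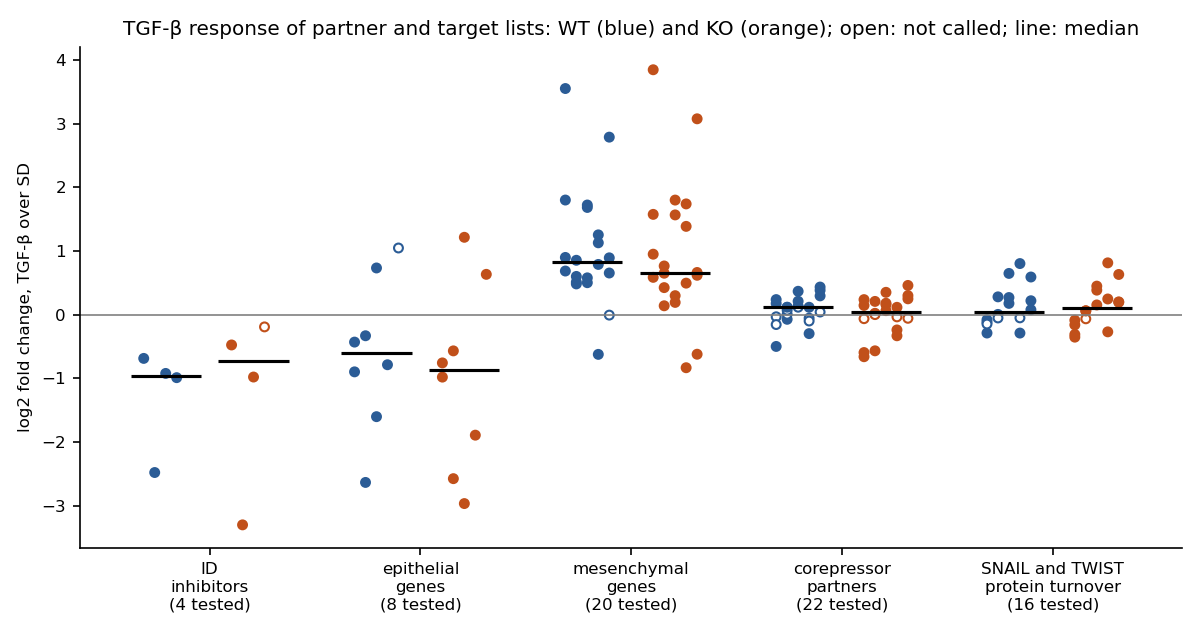
Log2 fold change with TGF-β over SD (y axis) of each tested gene of 5 lists (x axis) in WT (blue) and KO (orange), open where FDR was not below 5%, with the list median as a line. Id and epithelial genes lay mostly below 0 (medians -0.96 and -0.61 in WT), mesenchymal genes mostly above (median 0.82), and corepressors and turnover genes around 0, where the direction depended on the scaling of libraries.

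Corepressors and chromatin enzymes that ZEB, SNAIL and TWIST recruit were all detected, and 22 of 22 were tested. With TGF-β in WT 10 were higher and 3 lower (median 0.12), and in KO 11 were higher and 5 lower (median 0.04). Shares over all genes tested were 35.9% and 36.5% in WT and 35.0% and 39.0% in KO. Library size alone gave 4 higher and 10 lower in WT and 3 higher and 13 lower in KO. All 11478 genes moved likewise under that scaling, with 2648 higher and 5998 lower in WT and 2304 and 6664 in KO. Ctbp1, the corepressor of ZEB, had 136, 133 and 133 CPM in WT-SD, 146, 149 and 147 in WT-TGF, 173, 186 and 179 in KO-SD, and 186, 185 and 192 in KO-TGF. KO was above WT by 0.42 in SD (SE 0.03, FDR 5.58e-14) and by 0.35 with TGF-β (FDR 4.98e-12). For Ctbp2, its paralog, the differences were 0.15 (FDR 0.00113) and -0.04 (FDR 0.394).

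The largest genotype difference of the corepressor list in SD was that of Ezh2, the methyltransferase of Polycomb complex PRC2. Ezh2 had 13.8, 14.0 and 14.8 CPM in WT-SD, 14.5, 16.7 and 14.9 in WT-TGF, 27.3, 26.9 and 27.7 in KO-SD, and 17.3, 20.2 and 17.9 in KO-TGF. It was higher in KO-SD by 0.94 (SE 0.07, FDR 1.12e-13) and fell with TGF-β in KO by 0.57 (FDR 3.09e-09), while the change in WT was 0.12 (FDR 0.151). These responses differed by -0.68 (SE 0.10, FDR 1.91e-06). Suv39h1, a histone H3 lysine 9 methyltransferase that Snail recruits, was also higher in KO-SD, by 0.56 (FDR 3.73e-08) and lower with TGF-β in KO by 0.59 (FDR 1.12e-08), with -0.15 in WT (FDR 0.0671) and an interaction of -0.44 (FDR 0.00174). Ehmt2 (G9a), another of these enzymes, fell with TGF-β in WT by 0.50 (FDR 1.1e-13) and in KO by 0.66 (FDR 1.77e-16).

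SNAIL and TWIST proteins are unstable, and 16 genes that act on their turnover were tested. With TGF-β in WT 8 were higher and 4 lower (median 0.04) and in KO 9 were higher and 5 lower (median 0.11). Among all genes tested, 35.9% and 36.5% were higher and lower in WT, and 35.0% and 39.0% in KO. Library size alone gave 5 higher and 9 lower in WT and 4 higher and 8 lower in KO, where all genes also shifted downward. The ubiquitin ligase subunit Fbxw7 rose by 0.80 in WT (SE 0.04, FDR 3.02e-17) and by 0.81 in KO (SE 0.04, FDR 3.41e-17), and the proteasomal deubiquitinase Psmd14 by 0.59 and 0.63. Pak1, a kinase that phosphorylates Snail, rose by 0.65 in WT (FDR 4.55e-14) and by 0.45 in KO (FDR 1.56e-10), and Csnk1a1, casein kinase 1, by 0.39 in KO (FDR 1.06e-12). Protein was not measured.

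Of 19 related bHLH, homeobox and EMT factors, 6 were tested and 3 had no count. With TGF-β 3 were higher and 1 lower in WT, and 4 were higher and 1 lower in KO. Shares over all genes were 35.9% and 36.5% in WT and 35.0% and 39.0% in KO. Scx (scleraxis), a bHLH factor of tendon that also pairs with E proteins, had 21.0, 19.2 and 19.9 CPM in WT-SD, 50.1, 52.7 and 52.8 in WT-TGF, 22.5, 25.1 and 23.6 in KO-SD, and 44.9, 45.6 and 44.9 in KO-TGF. It rose by 1.37 in WT (SE 0.05, FDR 3.17e-21) and less in KO, by 0.93 (SE 0.05, interaction -0.44, FDR 1.41e-05). The forkhead factor Foxc1 fell by 0.45 in WT and by 0.60 in KO, and Foxq1 rose by 2.56 in KO, to 5.40, 5.18 and 5.72 CPM. The 10 reference genes known to respond to TGF-β had 10 higher in WT (median 2.12) and 8 higher and 2 lower in KO (median 1.60).

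Markers of cell types were checked because cultures can be mixed. Of 12 mesangial and smooth muscle markers 8 were tested, and they did not move together. Their sum was between 2585 and 2727 CPM in WT-SD, 5856 and 6011 in WT-TGF, 4983 and 5146 in KO-SD, and 11195 and 11288 in KO-TGF, most of it from Acta2 and Tagln. Des (desmin) instead fell from a mean of 7.68 CPM in WT-SD to 0.529 in KO-SD (log2 -3.85, FDR 2.76e-17), and Itga8, an integrin of mesangial cells, stood at 2.90, 1.61, 3.05 and 0.637 CPM. Thy1 and Ren1 were at 0.018 CPM or less in each group. Among podocyte markers, Wt1 had 98.0, 99.5 and 99.8 CPM in WT-SD and 23.8, 28.0 and 24.1 in KO-SD, and Podxl had 96.8, 101 and 96.2 CPM and 33.0, 32.9 and 32.3. The sum of the 10 tubular markers was between 139 and 148 CPM in WT-SD and between 75.4 and 77.0 in KO-SD, with Lrp2 and Cdh16 lower in KO-SD and Aqp1 at 4.11 and 6.81 CPM. With TGF-β it was between 61.1 and 69.1 CPM in WT and between 40.8 and 42.8 in KO. All 4 tested tubular markers were lower with TGF-β in each genotype, while Cubn and Slc12a1, under the filter, were higher. Their part in the fall of epithelial genes was not tested. The endothelial list was carried by Ehd3 (32.7 CPM in WT-SD and 17.1 in KO-SD), while Pecam1, Cdh5, Kdr and Tek were at 0.375 CPM or less in every group. The fibroblast list was carried by Col1a1 (4291 and 9954 CPM in WT-SD and KO-SD). Dcn, the other tested gene of that list, was also higher in KO-SD (9.85 and 59.3 CPM, log2 2.59, FDR 3.72e-25). Among those under the filter, Dpt and Pi16 were higher in KO-SD and Pdgfra was lower (3.55 and 1.97 CPM). In KO-SD over WT-SD, 7 tested mesangial and smooth muscle markers were called higher and 1 lower. The counts were 0 and 4 for podocyte, 1 and 3 for tubular, 0 and 5 for macrophage and 2 and 0 for fibroblast markers. Over all genes tested, 30.6% were higher and 25.3% lower. WT and KO libraries thus differed across several of these lists, and the part of this in the genotype differences above was not tested.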

How the data were processed

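mRNA libraries of MMC were sequenced as single reads. The authors mapped these to mm10 (TopHat), then tallied them over RefSeq genes in strand-specific mode, dropping poor alignments (HTSeq-count). The deposited values are raw counts for each gene and library, with no normalization. Totals that name no gene were left out (reads outside annotated exons made up 10.3% to 15.4% of a library). Depth was between 19898050 and 22827706 counts a library, and low counts carry counting error that replicates cannot remove.

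As in the study, the counts were TMM-scaled, genes were kept at RPKM >1 in at least 1 library, and edgeR was used. Here all 12 libraries were fitted together by group mean in edgeR 4.0.16 under R 4.3.3 (quasi-likelihood, Benjamini-Hochberg). Exon lengths came from GENCODE vM21 (24719 of 25230 genes), and Rn45s was not tested. Standard errors were derived from the test statistics. The fits were tested on simulated data.

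Named genes are all 10 members, up to 4 called genes of a list with the largest change and at least 5 CPM, the Id genes, Cdh1, Cdh2, Ctbp1, Ctbp2, Zeb2os and 4 macrophage markers; others are named for their likeness, as cell markers, or after their values were seen. Some genes that this rule names are not reported here. The members and lists were chosen with earlier results of these data known. Alternatives were library size alone, DESeq2 1.42.0, the likelihood ratio test, other filters (CPM >1 in at least 3 libraries, or none), only the groups compared, a replicate block, and leaving out each library.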

Additional observations from a re-analysis of the deposited data

Results flagged for a closer look

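The response to TGF-β differed between KO and WT for 5 of the 10 genes by the interaction term (KO minus WT, log2 scale, edgeR, FDR <5%). It was -1.39 for Prrx1, which fell in both genotypes and further in KO. It was 0.38 for Snai2, which fell in both and less in KO. Twist2 (-0.45) fell in KO, with a change in WT that was not called. Twist1 had -1.24, from 7 to 30 counts in a library, and Tcf4 had -0.12. The calls of Twist1 and Tcf4 were lost in DESeq2, with FDR of 0.251 and 0.137. Over all 11478 genes tested, 8.76% had a more positive and 16.6% a more negative response in KO. In the fit without the filter, which gave the Twist1 value, 2323 of 18564 genes had a more negative response.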

How the results depend on the processing

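Over 7 alternatives and the 12 libraries left out in turn, 1060 values kept their direction and their side of the threshold or count, 28 lost and 14 gained a call, 20 changed sign and 6 counts of members moved by over 1.5 times. With library size alone, members higher with TGF-β were 2 in WT and 2 in KO, against 5 and 4, and log2 changes in WT turned to -0.0385 (Zeb1), -0.0680 (Twist2), -0.0927 (Tcf3) and -0.0365 (Tcf4), that of Zeb1 in KO to -0.0640, and interactions to -0.0255 (Zeb1), -0.0230 (Zeb2) and -0.00348 (Tcf12), since this scaling lowers all values together. The change of Tcf4 in KO, near 0, turned to 0.0164 in DESeq2, 0.0145 with the CPM filter, 0.0149 without a filter and 0.0188 with only the groups compared, and ran from -0.0155 to 0.0286 as libraries were left out. With library size alone it was -0.203 and called lower. DESeq2 called 2 members with a more negative response in KO, against 4, and over all genes 1341, against 1904. Leaving out 1 library, members lower in KO-SD ran from 2 to 4 (2 without WT-SD replicate 2), members with a more negative response in KO from 2 (without KO-TGF replicate 1 or 2) to 4, Twist1 in KO-TGF over WT-TGF from -0.463 to 0.335, and the interactions of Zeb1 from -0.0115 to 0.0706 and of Zeb2 from -0.00435 to 0.0688. With a replicate block, Tcf3 gained the interaction (-0.14, FDR 0.0344), and no other call on a member changed. That made 5 members with a more negative response in KO, where over all genes there were 2064, against 1904. The numbers do not pair the libraries: same-number correlations of deviations ran from -0.03 to 0.13, and 1 of 18 was over 0.1. Counts of 7 to 30 limit Twist1.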
